A study of Homo sapiens with 18 samples.

Results

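The comparison described here set the cytosolic ribosome footprints of UFM1-KO cells against those of UFSP2-KO cells. Its members were chosen by the sample titles: 2 UFM1-KO and 2 UFSP2-KO cytosol libraries, 4 of the 18 libraries in the series. The study profiled ribosome footprints in the membrane and cytosolic fractions of 3 lines of HEK293, a human embryonic kidney line, and sequenced mRNA of whole cells from the same lines, with libraries a and b for each of the 9 groups. UFM1-KO cells were edited with Cas9 and the guide sgUFM1, UFSP2-KO cells with Cas9 and sgUFSP2, and the WT cells were unedited HEK293. All were grown in DMEM with fetal bovine serum. Each knockout was 1 clonal line, so a difference made by the knockout and a difference between clones cannot be told apart. The labels do not say that libraries a and b came from separate cultures. Each p-value therefore measures only the spread between such libraries, which may be technical. In the edgeR tests the spread was pooled over every group of a fit, and the footprint fit took in WT and the membrane fraction.

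UFM1 is a small ubiquitin-like protein that is joined to other proteins through its own set of enzymes, and its best known target is the ribosomal protein RPL26, which sits near the peptide exit of the large subunit on ribosomes bound to the endoplasmic reticulum. The protease UFSP2 cleaves UFM1 from the proteins that carry it. Cells without UFM1 therefore lack the modification, while cells without UFSP2 accumulate it on RPL26, and the comparison asks how translation in the cytosol differs between the 2 opposite states. A ribosome footprint is the stretch of mRNA that a ribosome shields from nuclease. The cytosolic fraction was what the detergent digitonin released, because digitonin opens the plasma membrane while organelles are pelleted.

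Footprints were counted per transcript, and transcripts with identical counts in all footprint libraries were merged into 1 feature, since isoforms share reads. The tables hold transcript IDs and do not pair them with gene names, so features are described by their coding length, read as codons from the length column, and 4 are given by ID. The targeted genes were not looked up, so the counts do not check the knockouts, and the markers of HEK293 cells were not checked. The UFM1-KO libraries held 1907000 (a) and 2671157 (b) deposited counts and the UFSP2-KO libraries 1587853 (a) and 5383754 (b), so that the 2 UFSP2-KO libraries differed most in depth. Levels are given as CPM, counts divided by the TMM-scaled library size in the usual unit of edgeR. Over the 6474 tested features whose mean in the 4 libraries reached 10 CPM, log2 CPM of libraries a and b correlated at Pearson's r of 0.957 for the UFM1-KO pair and 0.967 for the UFSP2-KO pair, across features, which are not independent replicates. The log2 difference between libraries a and b had an SD of 0.50 for UFM1-KO and 0.46 for UFSP2-KO.

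Footprints of 1331 features differed between the knockout lines in the cytosol, 12% of the 11065 tested (edgeR quasi-likelihood test, Benjamini-Hochberg adjusted p under 0.05, two-sided, n = 2 libraries per line). Of these, 645 were higher in UFM1-KO, 5.83% of those tested, and 686 were lower in UFM1-KO, 6.2%. The median difference among called features was 1.17 on the log2 scale, or 2.26-fold, and the smallest was 0.51. Differences over 4-fold were found for 168 features higher in UFM1-KO and 96 lower, and differences over 16-fold for 42 and 27. The libraries of the 2 lines did not overlap for 1327 of the called features, against 50.0% of all those tested. With library size in place of TMM as the scaling, all features shifted by a median of 0.14 (log2) and the higher share of calls moved from 48.5% to 64.9%. Single libraries carried part of the count: it was 871 without UFM1-KO library a, 785 without UFM1-KO library b and 677 without UFSP2-KO library b, of which 198 were higher and 479 lower.

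**Figure D1:**
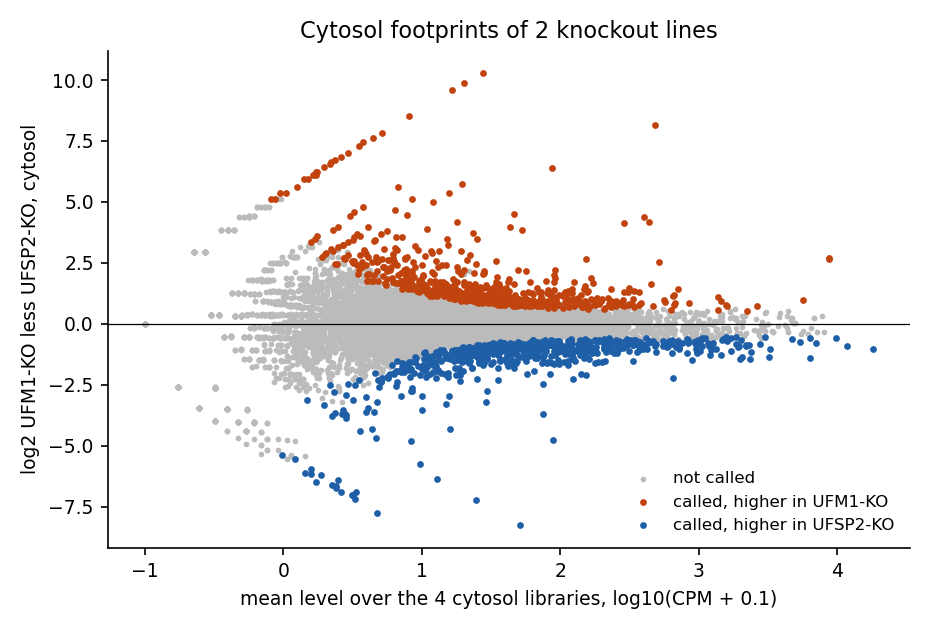
Log2 difference between UFM1-KO and UFSP2-KO in cytosol footprints (y axis) against the mean level over the 4 cytosol libraries as log10(CPM + 0.1) (x axis), with 1 point for each of 11065 tested features. Coloured points are the 645 features called higher and the 686 called lower in UFM1-KO, and the slanted rows of points at low levels are features with few or no counts in 1 line.

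The called features took up a sizeable part of the footprints. Features called higher in UFM1-KO held 12.6% and 11.9% of the counts in UFM1-KO libraries a and b and 4.34% and 4.39% in the UFSP2-KO libraries. Features called lower held 16.4% in each UFM1-KO library and 28.7% and 28.4% in the UFSP2-KO libraries. These shares describe the features that were chosen for the difference, and reads shared by isoforms are counted more than once in them. The lower features also lay at higher counts: their median level over the 4 libraries was 49.6 CPM, against 23.8 CPM for the higher ones and 14.1 CPM for all those tested. Among the 159 features of at least 1000 CPM, 10 were called higher and 44 lower, 34.0% together. Between 100 and 1000 CPM the calls were 100 higher and 186 lower of 1052 features. In the range from 10 to 100 CPM they were even, at 372 and 370 of 5263, and from 1 to 10 CPM they leaned the other way, at 159 higher and 85 lower of 3599. These splits hold for TMM scaling. With library size in its place 941 of all calls were higher and 510 lower, and the calls by level were not recounted. The median SE of the log2 difference fell from 0.60 in the range from 1 to 10 CPM to 0.19 at 1000 CPM and above, so small differences could be called only in features with many counts.

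By a fixed rule, the 15 features with the largest log2 difference in each direction were taken among called features that averaged 10 CPM or more and whose lines did not overlap. The 15 higher features differed by 3.88 to 10.27 (log2) and the 15 lower ones by 2.25 to 8.27, so that the smallest lower difference was 4.77-fold. Coding lengths ran from 116 to 888 codons in the higher set and from 102 to 1260 codons in the lower set. UFSP2-KO had at most 3 summed cytosol counts in 6 of the 15 higher features, and UFM1-KO in 3 of the 15 lower ones, while others were well covered in both lines. In 3 of the 15 higher features UFSP2-KO had no cytosol count at all, and a fitted log2 value there is no bound on the fold. With these 3 features at the bound that a floor of 3 counts allows, the median of the 15 remained 5.01. Bounds of this kind, here and below, use library totals without TMM scaling, unlike the CPM values, so they are not bounds on the CPM scale. The 2 IDs printed in each direction, chosen after values were seen, are the feature with the largest difference and the one with the highest level of the 15.

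Feature ENST00000457894.4, of 163 codons and 4 merged transcripts, stood at 70.6 and 38.8 CPM in UFM1-KO cytosol libraries a and b (103 and 77 counts) and at 0 counts in both UFSP2-KO libraries. WT had 31.0 and 38.2 CPM. The feature was thus present in UFM1-KO and WT and not detected in UFSP2-KO (edgeR adjusted p = 1.84e-09). By library totals without TMM scaling, its footprints were at least 87.9-fold higher in UFM1-KO, taking the floor of 3 counts over both UFSP2-KO libraries. The membrane fraction held 83.3 and 74.6 CPM in UFM1-KO against 0 and 1 counts in UFSP2-KO. Its mRNA stood at 35.1 and 37.2 CPM in UFM1-KO, at 16.6 and 21.3 CPM in WT, and at 1 and 3 counts in UFSP2-KO.

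Feature ENST00000503431.4, of 203 codons and 2 merged transcripts, had 914 and 999 CPM in UFM1-KO cytosol and 419 and 531 CPM in WT, but only 4.44 and 2.94 CPM in UFSP2-KO. The 3 lines did not overlap, with WT below UFM1-KO and far above UFSP2-KO. The difference between the knockouts was 8.14 (log2, SE 0.39, edgeR adjusted p = 1.08e-13) in cytosol footprints, 7.54 (SE 0.39) in membrane footprints and 6.94 (SE 0.27) in mRNA. Against WT, UFM1-KO was higher by 1.01 (log2, edgeR adjusted p = 0.0425), and the UFSP2-KO difference from WT was -7.13.

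In the other direction, ENST00000482108.1, a feature of 305 codons, had 0 and 1 counts in the UFM1-KO cytosol libraries, while the UFSP2-KO libraries held 100.2 and 105 CPM. WT had 55.0 and 40.3 CPM, between the knockouts. The fitted log2 difference was -8.27 (SE 0.55, edgeR adjusted p = 3.88e-11), and it rests on 1 count: it was -7.56 without UFM1-KO library a and -11.30 without library b, where UFM1-KO is at 0 and the fitted value is no bound. By TMM-scaled library sizes, unlike the bounds, the summed counts put UFSP2-KO at 357-fold UFM1-KO (95% exact interval 63.8 to 14128, counting error only). Membrane footprints stood at 0.37 and 2.15 CPM in UFM1-KO against 172 and 153 CPM in UFSP2-KO, and mRNA at 3 and 5 counts against 42.5 and 34.3 CPM. This message and its footprints were therefore close to absent from UFM1-KO in all 3 readouts.

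Feature ENST00000322764.8, of 552 codons, showed a smaller and tightly measured difference. It had 41.8 and 43.4 CPM in UFM1-KO cytosol, 82.9 and 80.6 CPM in WT and 201 and 206 CPM in UFSP2-KO, so that WT lay between knockouts whose replicates nearly coincided. The log2 difference was -2.26 (SE 0.23, edgeR adjusted p = 1.31e-07) in cytosol footprints, -1.72 (SE 0.22) in membrane footprints and -1.97 (SE 0.22) in mRNA. Against WT, UFSP2-KO was higher by 1.32 (log2, edgeR adjusted p = 4.17e-04), while the UFM1-KO difference of -0.93 did not pass the test (edgeR adjusted p = 0.0514).

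**Figure D2:**
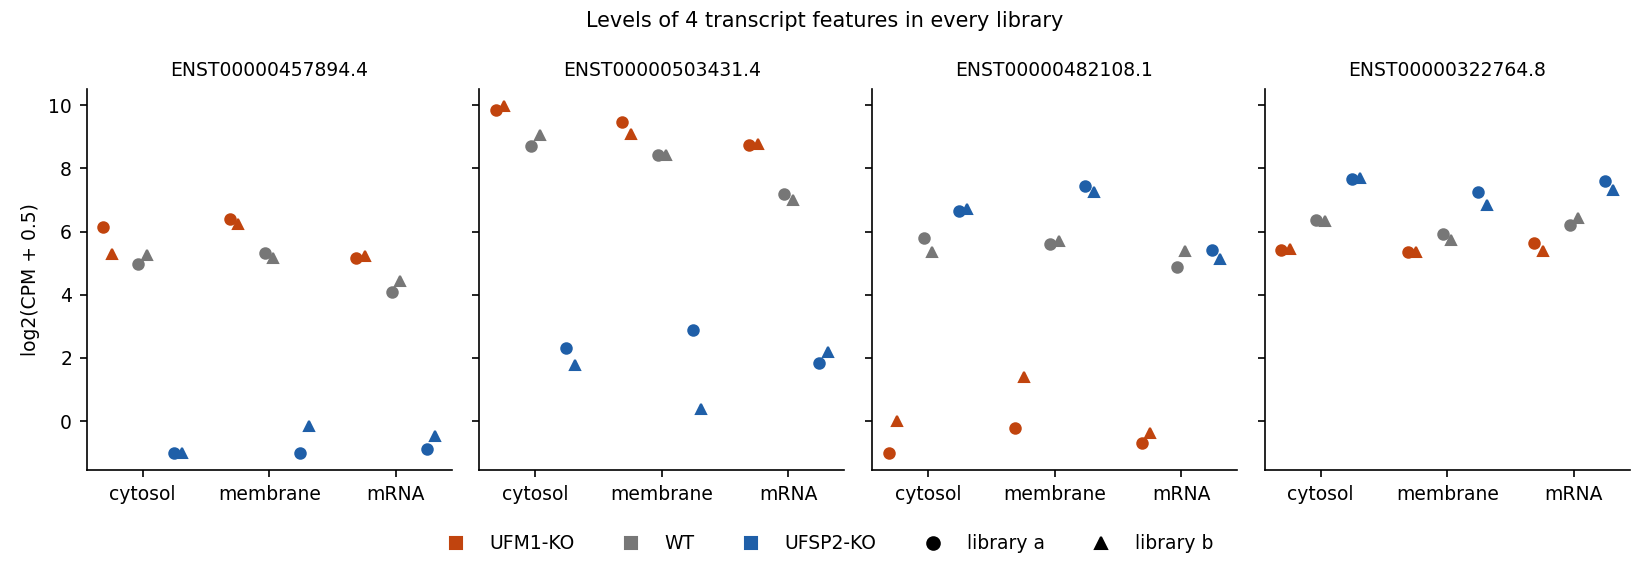
Level of the 4 features given by ID in every library, as log2(CPM + 0.5) (y axis), for cytosol footprints, membrane footprints and mRNA (x axis), with 1 point per library, circles for a and triangles for b. The first 2 features are low in UFSP2-KO and the third is low in UFM1-KO in all 3 readouts, and WT lies between the knockouts in the cytosol for all 4.

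Other features of the higher set had the same form. A feature of 484 codons had 33.6 and 46.4 CPM in UFM1-KO cytosol, 21.0 and 14.5 CPM in WT and 0 counts in UFSP2-KO cytosol, at least 68.8-fold higher in UFM1-KO. It also had 0 counts in both UFSP2-KO membrane libraries, at least 38-fold below UFM1-KO. A feature of 507 codons, at 24.0 and 41.9 CPM in UFM1-KO against 0 counts, was at least 57.6-fold higher in the cytosol. A feature of 380 codons had 192 and 151 CPM in UFM1-KO, 114 and 118 CPM in WT and 3.55 and 1.47 CPM in UFSP2-KO, a log2 difference of 6.37 (SE 0.37). For these features WT had many counts and UFSP2-KO few or none.

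Among the lower features, one of 299 codons was high in UFSP2-KO and low in both other lines. Its cytosol counts were 1 and 0 in UFM1-KO, 0 and 8 in WT and 50 and 183 in UFSP2-KO. Its mRNA was 0.90 and 1.29 CPM in UFM1-KO, 8.25 and 1.56 CPM in WT and 294 and 258 CPM in UFSP2-KO. Its membrane footprints, at 0 counts in both UFM1-KO libraries, were at least 105-fold higher in UFSP2-KO. A feature of 102 codons followed that order, with 4.80 and 7.56 CPM in UFM1-KO cytosol, 7.99 and 16.1 CPM in WT and 114 and 226 CPM in UFSP2-KO. A feature of 698 codons had 0 and 1 counts in UFM1-KO, 2 and 24 counts in WT and 19 and 116 counts in UFSP2-KO.

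A pair of features in the higher set had replicates far apart. One of 888 codons had 1401 and 243 CPM in UFM1-KO libraries a and b, 57.0 and 7.14 CPM in WT and 81.6 and 21.1 CPM in UFSP2-KO, so that library a was higher in every line. Its log2 difference of 4.17 (SE 0.89, edgeR adjusted p = 0.00267) fell to 2.43 without UFM1-KO library a and no longer passed the test, and it did not pass with DESeq2 or without UFSP2-KO library b. One of 222 codons had 817 and 273 CPM in UFM1-KO, 405 and 16.3 CPM in WT and 23.1 and 35.5 CPM in UFSP2-KO, had 0 counts in all 6 mRNA libraries, and was not called with DESeq2, where the log2 difference was 4.22 against 4.14 here.

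**Figure D3:**
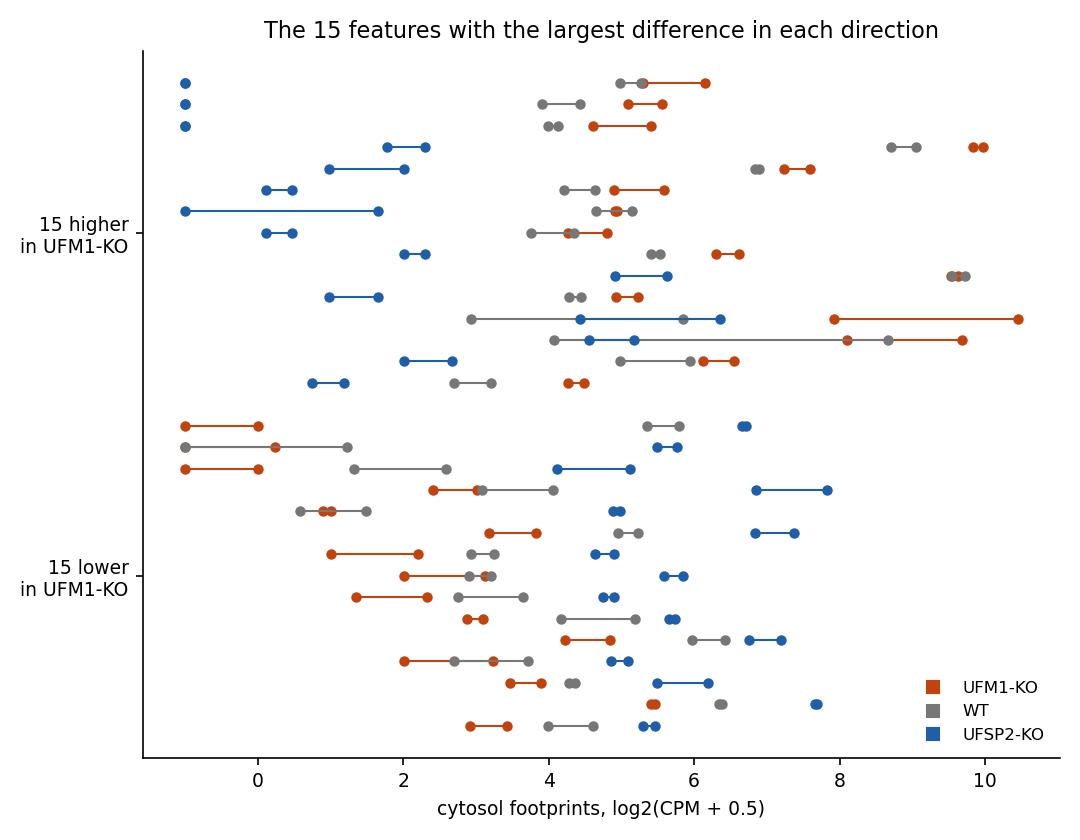
Cytosol footprint level as log2(CPM + 0.5) (x axis) of the 15 features with the largest difference in each direction (y axis, 1 line of points per feature), with 2 points joined by a bar for libraries a and b of each line. The UFM1-KO and UFSP2-KO points do not overlap in any of these features, which was a condition of the choice, and the WT points mostly lie on the UFM1-KO side in the upper 15 and between the knockouts in the lower 15.

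Some called features had at most 3 counts summed over both cytosol libraries of 1 line. UFSP2-KO was the low line for 64 of them, 25 of which had no count there, and UFM1-KO was the low line for 45, 17 of which had none. The 64 features stood at 1.44 to 54.7 CPM in UFM1-KO (median 4.59) and had a median of 2.88 CPM in WT. The 45 stood at 1.77 to 102.6 CPM in UFSP2-KO (median 5.16) and had a median of 2.34 CPM in WT. WT was above 3 counts for 57 of the 64 and 39 of the 45, so most of these features were detected in unedited cells and missing or rare in 1 knockout line. The mRNA difference had the same direction for 61 of the 63 with an mRNA test and was called for 45 of them. Over all 1291 cytosol calls with an mRNA test, it had the same direction in 97.7% and was called in that direction in 53.7%. The shared direction was thus not particular to features rare in 1 line. For the features rare in UFM1-KO the figures were 43 of 44, with 27 called. At these counts a feature listed at 0 was not detectable at this depth, and absence of the message was not shown.

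WT cells gave a point of reference for the called features, although both knockouts were compared with the same WT libraries and the 2 differences from WT are therefore not independent. Against WT, 94 features were called in UFM1-KO cytosol (0.85% of those tested, 18 higher and 76 lower) and 442 in UFSP2-KO cytosol (3.99%, 165 higher and 277 lower), by edgeR. With library size as the scaling the UFM1-KO calls were 23 higher and 27 lower, and with RLE 19 and 60. The lean to lower calls in UFM1-KO thus depended on the scaling. The UFM1-KO count moved to 15 without UFM1-KO library a, 29 without UFM1-KO library b and 9 without WT library b. The UFSP2-KO count moved to 274 without UFSP2-KO library a, 245 without UFSP2-KO library b and 170 without WT library b. Of the 645 features higher in UFM1-KO than in UFSP2-KO, WT lay between the knockouts for 550, above both for 85 and below both for 10. Over all features of at least 10 CPM, WT lay between for 3200 of 6474. Features chosen for a difference between the knockouts leave a wider interval for WT, so the choice favours a high count. WT was nearer to UFM1-KO in 516 of the 645, or 80%, against 58.2% of all features of at least 10 CPM. The 645 had no such limit on level, and 482 of them reached 10 CPM. The median difference from WT was 0.38 (log2) for UFM1-KO and -0.94 for UFSP2-KO, and the test against WT called 207 of the 645 lower in UFSP2-KO and 11 higher in UFM1-KO. Most of the higher set was therefore lower in UFSP2-KO than in WT to a greater extent than it was higher in UFM1-KO. These values are on the TMM scale. Library size as the scaling shifted all features by a median of 0.145 (log2) in UFM1-KO against WT and 0.0075 in UFSP2-KO against WT. The place of WT was not recomputed with that scaling.

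The lower set had no lean toward UFM1-KO on the TMM scale, and this too was not recomputed with library size. WT lay between the knockouts for 624 of the 686 features, against 3200 of the 6474 features of at least 10 CPM. This high count is likewise favoured by the choice of features. WT was nearer to UFM1-KO in 332 of the 686, or 48.4%, a smaller share than the 58.2% of all features of at least 10 CPM. Of the 686, 600 reached 10 CPM. The median difference from WT was -0.58 (log2) for UFM1-KO and 0.54 for UFSP2-KO. By the test against WT, UFM1-KO was lower in 64 and UFSP2-KO was higher in 111. With WT library a or b alone, the share nearer to UFM1-KO was 74.4% and 79.7% in the higher set and 50.0% and 42.1% in the lower set. Over all features of at least 10 CPM it was 56.4% and 57.2%. Among the named features, 14 of the 15 higher and 14 of the 15 lower ones were called in UFSP2-KO against WT, and 4 and 4 in UFM1-KO against WT. Over all tested features, 3.99% were called in UFSP2-KO against WT and 0.85% in UFM1-KO against WT. The named features were chosen for a large difference in the same knockout libraries, which favours calls against WT.

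The message differed along with the footprints. Between the knockouts, 2217 of 13900 mRNA features were called (15.9%, 1102 higher and 1115 lower in UFM1-KO, by edgeR). Without UFM1-KO mRNA library a there were 1365. Of the 1331 features called in cytosol footprints, 1291 had an mRNA test. The mRNA difference had the same direction in 1261 of these (97.7%), against 79.8% of the 6356 features of at least 10 CPM. The 1331 had no such limit on level, and 1082 of them reached 10 CPM. Among the 1291, the mRNA difference was called in the same direction in 693 (53.7%) and called in the opposite direction in 0. The called features had a median absolute log2 difference of 1.17 in cytosol footprints and 0.78 in mRNA. The footprint value comes from the data that chose these features. Read the other way, the 907 features of at least 10 CPM that were called in mRNA had a median absolute log2 difference of 0.92 in mRNA and 0.94 in cytosol footprints, and 888 of them (97.9%) had the same direction in both.

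Membrane footprints of the same lines, from libraries of their own, gave 2372 calls (21.4%, 1238 higher and 1134 lower in UFM1-KO). That count was 1098 without UFM1-KO membrane library a, 1573 without UFM1-KO library b, 1376 without UFSP2-KO library a and 1183 without UFSP2-KO library b. The direction in the membrane fraction was that of the cytosol in 1285 of the 1331 cytosol calls (96.5%), against 77.8% of features of at least 10 CPM. The 1331 calls were again not limited by level. The membrane difference was called in the same direction in 821 (61.7%) and in the opposite direction in 0. Across the features of at least 10 CPM, the log2 difference in cytosol footprints correlated with that in mRNA at Pearson's r = 0.799 (n = 6356) and with that in membrane footprints at 0.789 (n = 6474). These points share the clonal lines, and features with shared reads are not independent.

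All 3 readouts called 516 features, each in the same direction. Their median absolute log2 difference was 1.37 in cytosol footprints, 1.13 in mRNA and 1.30 in membrane footprints. A further 177 were called in the cytosol and mRNA alone, and 280 in the 2 footprint fractions alone. Another 318 were called in cytosol footprints alone, and for 297 of these the mRNA had the same direction, with a median absolute log2 difference of 0.46 in mRNA against 1.07 in cytosol footprints. The 30 cytosol calls whose mRNA had the opposite sign had a median absolute mRNA difference of 0.21 (log2). Being called in 1 readout and not in another does not show that the readouts differ, which the tests of the difference itself address.

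**Figure D4:**
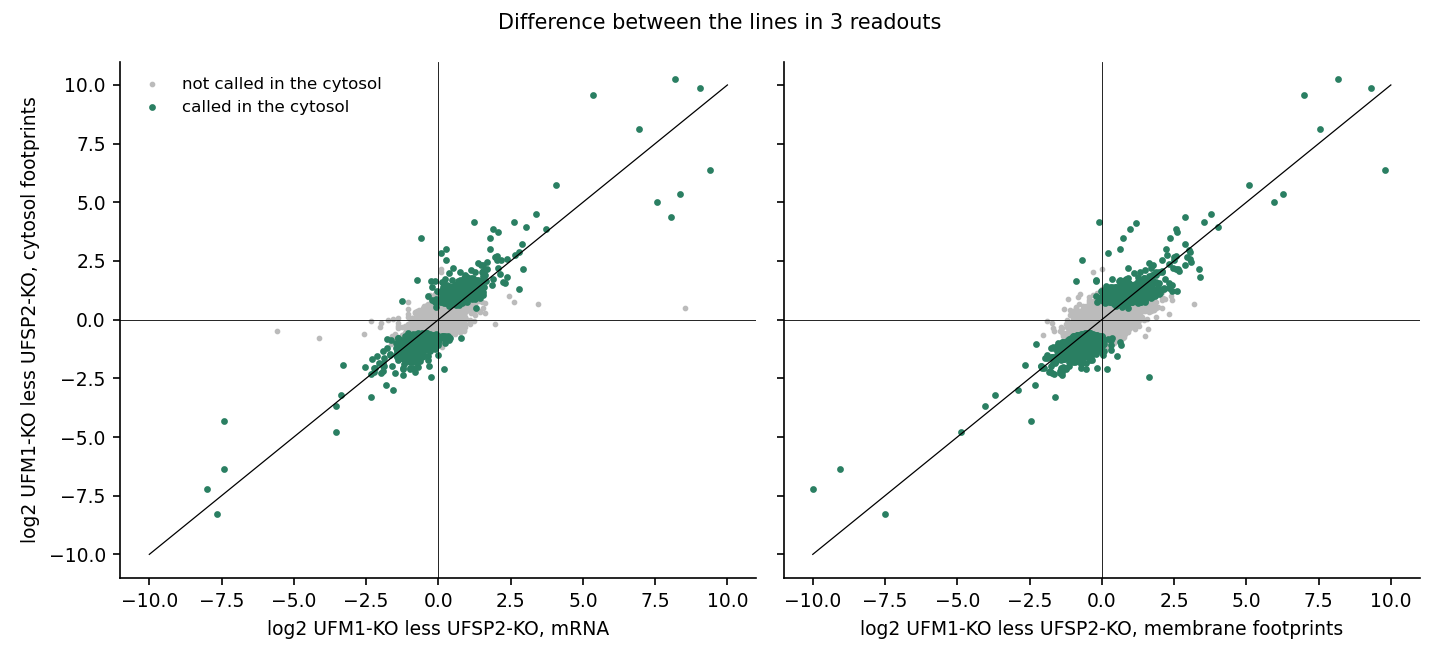
Log2 difference between UFM1-KO and UFSP2-KO in cytosol footprints (y axis) against that in mRNA (left panel, x axis) and in membrane footprints (right panel, x axis), for features of at least 10 CPM, with 1 point per feature and the line of equal differences drawn. Green points are features called in the cytosol, nearly all in the quadrants where both readouts have the same sign, with Pearson's r of 0.799 and 0.789 over all points.

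The difference in cytosol footprints less the difference in mRNA asks whether footprints per message differed between the knockouts. The edgeR interaction test over all 18 libraries called 4 of 12629 features (0.0317%), all lower in footprints than mRNA in UFM1-KO relative to UFSP2-KO, with 675 at an unadjusted p under 0.05 (5.34%). DESeq2 called 10, including these 4. The median absolute value of the interaction was 0.38 (log2). In simulated counts this test called 8% of 2-fold and 56% of 4-fold changes, against 41% and 83% for cytosol footprints alone. Each feature was simulated at its mean CPM over all libraries of the fit, so these rates may not hold for features rarer in the cytosol. Few calls therefore do not show that footprints per message were alike in the knockouts. In 2 of the 4 features the counted mRNA was nearly absent from UFSP2-KO and the footprints were less so. A feature of 109 codons had 45.2 and 28.2 CPM of cytosol footprints in UFM1-KO against 28.4 and 23.8 CPM in UFSP2-KO, while its mRNA was 526 and 487 counts in UFM1-KO against 2 and 0 counts in UFSP2-KO. The interaction was -7.89 (log2, SE 0.61, edgeR adjusted p = 3.89e-09). A feature of 116 codons fell in the footprints as well, from 792 and 739 CPM in UFM1-KO to 48.8 and 29.7 CPM in UFSP2-KO, with WT at 747 and 841 CPM. Its mRNA went from 221 and 262 CPM to 1.16 and 0.53 CPM, so the mRNA difference of 8.06 (log2, SE 0.33) exceeded the footprint difference of 4.36 (SE 0.26), an interaction of -3.75 (SE 0.41, edgeR adjusted p = 3.88e-06). These 2 features were called under every alternative run. How reads from near-identical copies of a gene were counted is not given in the labels, and these features are uncertain in that respect.

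The remaining pair were called with all libraries and lost without some. A feature of 603 codons had 76.1 and 40.3 CPM of cytosol footprints in UFM1-KO against 304 and 194 CPM in UFSP2-KO. Its mRNA overlapped between the lines, at 33.4 and 42.6 CPM against 36.9 and 30.2 CPM. The interaction was -2.34 (log2, SE 0.38, edgeR adjusted p = 0.00557), and it was -1.91 without UFM1-KO cytosol library b (edgeR adjusted p = 0.0519) and -1.98 without UFSP2-KO cytosol library a (edgeR adjusted p = 0.109). A feature of 232 codons had few cytosol counts, 14 and 10 for UFM1-KO and 8 and 5 for UFSP2-KO. Its mRNA was far apart, with 291 and 428 CPM for UFM1-KO and 6.80 and 7.70 CPM for UFSP2-KO. Its interaction of -4.48 (log2, SE 0.76, edgeR adjusted p = 0.00766) was -3.43 without UFSP2-KO cytosol library a (edgeR adjusted p = 0.577). The count of such features was 11 without UFM1-KO cytosol library b, 2 without UFSP2-KO cytosol library a, 12 without UFM1-KO mRNA library b and 9 without UFSP2-KO mRNA library b.

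The difference in the cytosol less that in the membrane fraction was called for 4 of 11065 features (0.0362%, 1 higher and 3 lower, edgeR interaction test), with 742 at an unadjusted p under 0.05 (6.71%) and 4 called by DESeq2. In simulated counts this test called 12% of 2-fold and 66% of 4-fold changes, so differences of that size could be missed. The simulation used the mean CPM over both fractions. Features with mainly membrane footprints were thus simulated above their cytosol level, and the rates may not hold for them. The 603-codon feature was one of the 4 called: in the membrane fraction it stood at 65.8 and 57.4 CPM in UFM1-KO against 55.1 and 55.7 CPM in UFSP2-KO, while the difference in the cytosol was -2.1 (log2, SE 0.27). A feature of 1492 codons went the other way. It had 232 and 291 CPM of cytosol footprints in UFM1-KO, 195 and 227 CPM in WT and 66.5 and 94.3 CPM in UFSP2-KO, a difference of 1.67 (log2, SE 0.23). At the membrane it had 351 and 383 CPM in UFM1-KO against 400.0 and 446 CPM in UFSP2-KO, and its mRNA had 403 and 330 CPM against 249.8 and 277 CPM. For this long feature the knockouts were thus apart in the cytosol, and the membrane difference of -0.21 (log2) did not pass the test. Both calls were lost without UFM1-KO membrane library a, where the interaction was -2.15 and 1.82, without UFSP2-KO membrane library b, where it was -2.27 and 1.80, and without UFSP2-KO cytosol library a, where it was -1.93 and 1.68. The first was also lost without UFSP2-KO membrane library a (-2.25) and the second without UFM1-KO membrane library b (1.95). No feature was called without UFSP2-KO cytosol library a, by edgeR, and 825 then had an unadjusted p under 0.05. The count was 1 without UFM1-KO membrane library a, 1 without UFSP2-KO membrane library b and 13 without UFM1-KO cytosol library b.

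Features with mainly membrane footprints in WT, which have few in the cytosol by that choice, were called in both directions. The class of 2535 features with over 2-fold more membrane than cytosol footprints in unedited cells, by edgeR, held 52 called higher and 53 called lower, 4.14% of the class against 12% of all features. Its median level in the 4 libraries was 1.51 CPM, which limits what could be called: among the 273 of at least 10 CPM, 24 were higher and 22 lower, 16.8% against 16.7% of all 6474 features of that level. The median log2 difference in the cytosol was 0.00 over the class and 0.07 over its 273 features of at least 10 CPM, after TMM scaling. These features took 2.30% and 1.95% of the counts in UFM1-KO libraries a and b (95% exact Clopper-Pearson intervals 2.27% to 2.33% and 1.93% to 1.97%, counting error only). In UFSP2-KO they took 2.11% and 1.71% (2.08% to 2.14% and 1.69% to 1.72%), so the lines overlapped. The means were 2.12% ± 0.251 and 1.91% ± 0.282 (SD, n = 2 each, exact permutation test, two-sided, p = 0.667). WT had 1.64% ± 0.333, but the class was set from the WT libraries for few cytosol footprints, so that share cannot be compared with the knockouts. Within each letter UFM1-KO was higher, by 0.193 percentage points for a and 0.237 for b, but with the class set at over 4-fold the differences were -0.037 and 0.049. With 2 libraries against 2 the smallest possible exact p is 0.333. The 547 features over 2-fold higher in the cytosol in WT held 31 called higher and 59 called lower, 16.5% of them. At 10 CPM or more the calls were 27 and 57 of 433, or 19.4%, against 16.7% of all. They took 17.5% ± 1.9 and 18% ± 2.38 of the counts (SD, n = 2 each, exact permutation p = 0.667).

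Coding length sorted the differences weakly in the cytosol and more clearly at the membrane. Features of at least 10 CPM were put into 5 groups of nearly equal size by length. Over all of them, 482 were called higher and 600 lower, 16.7%. In the shortest group, of 5 to 217 codons, 82 of 1299 were called higher and 145 lower in UFM1-KO cytosol, 17.5%. The called share was 18%, 18.8% and 16.7% in the next groups, near that of all, with 103 and 130, 111 and 132, and 105 and 112 calls. In the longest group, of 872 to 8777 codons, 81 of 1292 were called higher and 81 lower, 12.5%. The median log2 difference in the cytosol was -0.06 in the shortest group and 0.05 in the longest, and leaving out each library in turn moved these to between -0.16 (without UFSP2-KO library a) and -0.05 and to between -0.06 (without UFSP2-KO library b) and 0.04. With library size as the scaling the medians were 0.08 and 0.19, so the sign of the short group's median depended on the scaling. In membrane footprints the medians ran the other way, from 0.29 in the shortest group to -0.14 in the longest, and in mRNA from -0.09 to 0.09. Leaving out 1 library put the shortest and longest groups between 0.18 (without UFM1-KO library a) and 0.35 and between -0.17 and -0.12 at the membrane. In mRNA it put the shortest between -0.16 (without UFM1-KO library b) and -0.04 (without UFSP2-KO library a), and the longest between 0.0022 (without UFM1-KO library a) and 0.18 (without UFSP2-KO library b), so the size of the mRNA medians rested on single libraries. The difference correlated with length across features at Spearman's rho of 0.044 in the cytosol, -0.245 at the membrane and 0.128 in mRNA.

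**Figure D5:**
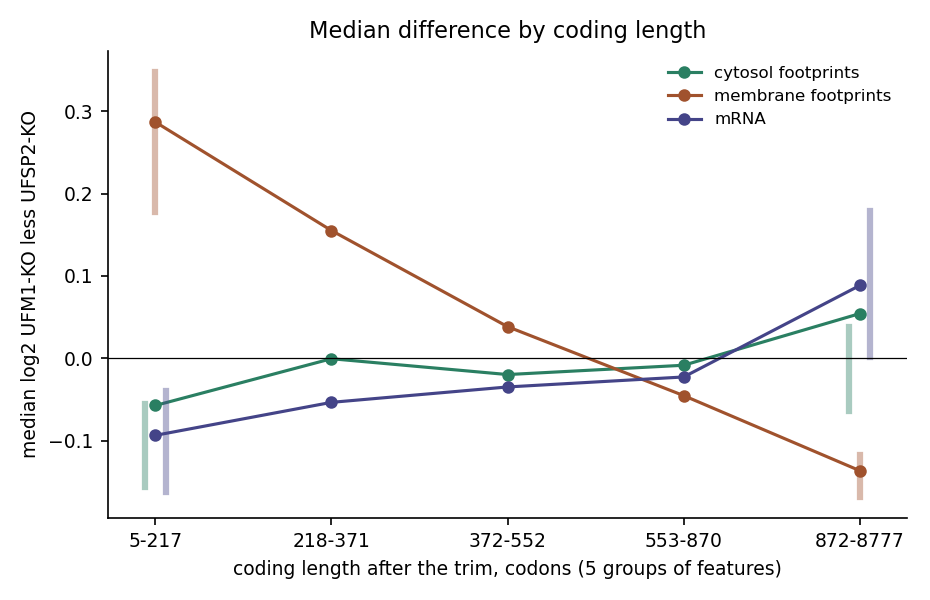
Median log2 difference between UFM1-KO and UFSP2-KO (y axis) in 5 groups of features by coding length in codons (x axis), for cytosol footprints, membrane footprints and mRNA, with the range over leaving out each library drawn as a bar for the shortest and longest groups. The cytosol medians stay between -0.06 and 0.05, while the membrane medians go from 0.29 to -0.14.

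Features of at most 200 codons held 36.2% and 34.0% of cytosol counts in UFM1-KO libraries a and b and 38.5% and 36.1% in the UFSP2-KO libraries. WT had 38.3% and 37.8%. The means, 35.1% ± 1.61 in UFM1-KO and 37.3% ± 1.73 in UFSP2-KO (SD, n = 2 each), missed the threshold in an unpaired exact permutation test (two-sided, p = 0.667), which cannot go below 0.333 here. Within each letter UFM1-KO was lower, by a difference of -2.31 percentage points for a and -2.13 for b. In the membrane fraction the same features held 21.9% and 20.4% of UFM1-KO counts and 20.9% and 19.1% of UFSP2-KO counts.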

How the data were processed

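The deposited tables gave raw counts per versioned Ensembl transcript and a length, with no header. TopHat2 2.1.1 and the build GRCh38 are named in the submitters' processing notes. Which program counted the reads, and on which annotation, is not given in the sources used here. A deposited length column was taken to be the coding length in codons, less a trim at the ends. Of 26679 footprint transcripts, 21223 had a count and were merged by identical counts into 14377 features. Transcripts of the 2 assays were matched by ID without version and by length (25629 matched).

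Counts were fitted in R 4.3.3 with edgeR 4.0.16 (filterByExpr with a minimum count of 10, TMM, quasi-likelihood test, 1 coefficient per group, no replicate block): 12 footprint libraries, 6 mRNA libraries, and all 18 for the difference between footprints and mRNA. SEs come from the F statistic. The residual degrees of freedom per feature were 6, 3 and 9. Adjustment was over all features of a fit, at 0.05, and the models were tested on simulated data. The 4 cytosol libraries held 1587853 to 5383754 deposited counts and the mRNA libraries 37451244 to 68675420, and a floor of 3 counts was used for features at 0. Named features were the 15 with the largest difference in each direction among called features that averaged 10 CPM or more, with no overlap of lines, plus features called in the 2 interaction tests. Shares were tested with an exact permutation test over libraries. Alternatives were other scalings (RLE, library size), no filter, DESeq2 1.42.0, fewer libraries, a replicate block and unmerged transcripts. The plan held gene lists and cell markers, which were not analysed here because the transcript IDs were not paired with gene names, and no sequences are shown for the same reason. The comparison, the members and the lists were chosen with earlier results of these data known.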

Additional observations from a re-analysis of the deposited data

Results flagged for a closer look

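The cytosol and membrane fractions differed in the UFM1-KO to UFSP2-KO contrast for 4 features, by the edgeR interaction test at an adjusted p under 0.05. The difference in the cytosol less that at the membrane was -2.27 (log2) for the feature of 603 codons and 1.88 for the feature of 1492 codons (edgeR adjusted p = 0.0106 each). It was -5.72 for the feature of 232 codons (edgeR adjusted p = 0.00198), whose membrane footprints stood at 1870 and 1668 CPM in UFM1-KO and 15.9 and 13.1 CPM in UFSP2-KO, against 24 and 13 summed cytosol counts. It was -4.72 without UFSP2-KO cytosol library a and then not called. For a feature of 182 codons it was -4.08 (edgeR adjusted p = 0.0265). That value rests on UFM1-KO membrane library a, where 89 membrane counts stood against 2 in library b (UFSP2-KO had 12 and 3). Without that library it was -0.77, and it was about as large but not called with RLE (-4.05), library size only (-3.99) or DESeq2 (-3.62), nor without UFSP2-KO membrane library b (-3.15) or UFSP2-KO cytosol library a (-3.86).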

How the results depend on the processing

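The count of cytosol calls was 1331, and 1451 with library size only, 1372 with RLE, 1429 without the filter, 1119 in a fit of the 4 libraries and 1877 with transcripts unmerged, but 752 with DESeq2, all 752 among the 1331. Leaving out 1 library gave 677 to 1011 calls in the cytosol, 1098 to 1573 at the membrane and 1365 to 1958 in mRNA. The same step gave 2 to 12 calls for the cytosol less mRNA, 0 to 13 for the cytosol less the membrane, 9 to 110 for UFM1-KO against WT and 170 to 449 for UFSP2-KO against WT. In all, 332 of the cytosol calls (24.9%) were made with all libraries and without any 1 of the 4, 114 higher and 218 lower. DESeq2 gave 1276 membrane calls, 10 for the cytosol less mRNA, 47 for UFM1-KO against WT and 249 for UFSP2-KO against WT. The cytosol less mRNA had 25 calls without the filter, and UFM1-KO against WT had 50 with library size only. The causes of these changes were not tested.

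The labels do not say whether the letters a and b mark a shared culture or batch. Whether libraries of the same letter share more than that letter is therefore not known. The log2 difference of a less b correlated between UFM1-KO and UFSP2-KO at 0.253 in the cytosol, 0.129 at the membrane and -0.686 in mRNA, across features. Between UFM1-KO and WT it correlated at 0.271, 0.142 and 0.059 in the same order. Between UFSP2-KO and WT the values were 0.290, 0.145 and -0.225. With the letter as a replicate block there were 2113 cytosol calls, 1330 of them shared, and 2069 in the 4 libraries alone, a fit added after seeing the data. The replicate block gave 11 calls for the cytosol less mRNA, 44 for the cytosol less the membrane, 407 for UFM1-KO against WT and 1221 for UFSP2-KO against WT.

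Of the 30 named features, 27 were called under every alternative run and none changed direction. The named features were chosen as the largest differences in these same libraries, so their stability does not describe that of the other calls. Depth limited low features: 5.42% of the 4591 features under 10 CPM were called, against 16.7% above.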
